A study of Mus musculus with 208 samples.

Results

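Adenylyl cyclases make cyclic AMP from ATP at the cell membrane, and this account follows 8 of the membrane-bound isoform genes, Adcy1, Adcy2, Adcy3, Adcy5, Adcy6, Adcy7, Adcy8 and Adcy9, through neuronal nuclei of 4 mouse brain regions. The members were chosen by gene symbol, and all 8 were present among the 46403 genes of each region's count table. The membrane-bound Adcy4 and the soluble Adcy10 are not among the members and were counted with the other genes of the pathway. RNA was measured in 208 libraries from 71 wild type C57BL/6NTac mice (by replicate number), 1 library per animal and region, each made from about 5000 nuclei sorted by FACS for the neuronal protein NeuN. Dams received morphine (10 mg/kg/day by minipump) or saline through gestation, pups went to drug-naive surrogate mothers after birth, and pups were then injected with morphine (10 mg/kg under the skin, repeated daily) or saline from postnatal day 1 to 14. As adults the mice were injected with lipopolysaccharide (LPS, a bacterial endotoxin) or saline, and 2 mm punches were taken 2 h later. The 4 groups were SAL–SAL (saline throughout), MOR–SAL (perinatal morphine, adult saline), SAL–LPS (perinatal saline, adult LPS) and MOR–LPS (perinatal morphine, adult LPS). In that order they held 13, 12, 14 and 16 hippocampal libraries, 11, 14, 12 and 14 hypothalamic libraries, 10, 12, 10 and 16 libraries of the prefrontal cortex (PFC), and 13, 8, 15 and 18 striatal libraries. The 107 libraries from females and 101 from males carried replicate numbers of 2 parts. The full number was read as the animal, and the first part took 18 values, called number groups here, 17 of which held 1 sex and each of which held 1 perinatal exposure. The labels do not say what the first part stands for, and the study's methods count more litters than there are number groups.

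The isoforms differ in how they are regulated. Adcy1 and Adcy8 are stimulated by calcium and calmodulin and are known for their part in synaptic plasticity, and Adcy3 is the cyclase of neuronal primary cilia. Adcy5 and Adcy6 are inhibited by the G protein Gαi and by calcium, and Adcy5 is the main cyclase of striatal projection neurons. Adcy2 and Adcy7 are stimulated by Gβγ when Gαs is active, and Adcy9 responds little to forskolin, the drug that stimulates the other isoforms. Morphine acts on opioid receptors, which couple to Gαi and lower cyclic AMP, and prolonged opioid exposure followed by withdrawal is known to raise cyclase activity in cultured cells and in several brain regions.

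The 8 genes lie on 6 chromosomes and differ in length far more than in exon content (mouse build mm10, GENCODE gene models). Adcy1 is at chr11:7063489-7178506 on the plus strand, with 12.52 kb of exon in a span of 115 kb. Adcy2 is at chr13:68620043-68999541 on the minus strand and is the longest, with 4.211 kb of exon in 379.5 kb. Adcy3 is at chr12:4133103-4213525 (plus, 6.246 kb of exon in 80.42 kb), and Adcy5 is at chr16:35154877-35305738 (plus, 7.184 kb in 150.9 kb). Adcy6 is the shortest, at chr15:98589973-98610076 (minus, 6.782 kb in 20.1 kb). Adcy7 is at chr8:88272403-88329962 (plus, 6.733 kb in 57.56 kb), Adcy8 at chr15:64697084-64922296 (minus, 8.152 kb in 225.2 kb) and Adcy9 at chr16:4287529-4420498 (minus, 5.197 kb in 133 kb). Part of the exon sequence of Adcy3 (1380 bases), Adcy6 (605 bases) and Adcy2 (189 bases) is shared with overlapping genes, so reads there could not be given to 1 gene with certainty.

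Promoter sequences (RefSeq, GRCm38.p6) were at hand for 6 of the 8 members, with 9 start sites, and the 250 bases before the start are shown for the 3 members whose level passed a test of conditions in the hypothalamus (Adcy1, Adcy7, Adcy9) and for the leading striatal isoform (Adcy5). Each is written 5′ to 3′ on the gene's own strand, with the short cyclic AMP response element motif TGACG, searched on both strands (CGTCA where it lies on the other strand), in capitals.
Adcy1 (chr11:7063183-7063432, plus): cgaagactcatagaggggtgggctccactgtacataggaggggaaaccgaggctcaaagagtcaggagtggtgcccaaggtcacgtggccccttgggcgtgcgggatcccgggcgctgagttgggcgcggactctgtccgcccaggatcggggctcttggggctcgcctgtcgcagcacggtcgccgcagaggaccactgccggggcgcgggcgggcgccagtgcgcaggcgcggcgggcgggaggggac
Adcy5 (chr16:35154614-35154863, plus): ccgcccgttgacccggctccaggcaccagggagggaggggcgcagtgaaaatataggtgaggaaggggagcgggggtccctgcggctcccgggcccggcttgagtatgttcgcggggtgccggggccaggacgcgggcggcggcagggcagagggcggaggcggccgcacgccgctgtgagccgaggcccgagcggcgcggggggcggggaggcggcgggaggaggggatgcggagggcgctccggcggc
Adcy7, first of 3 start sites (chr8:88282742-88282991, plus): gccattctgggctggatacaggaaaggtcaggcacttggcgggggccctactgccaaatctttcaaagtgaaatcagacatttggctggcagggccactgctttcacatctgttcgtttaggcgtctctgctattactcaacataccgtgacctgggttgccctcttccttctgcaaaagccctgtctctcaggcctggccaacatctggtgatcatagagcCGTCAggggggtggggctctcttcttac
Adcy9 (chr16:4420499-4420748, minus): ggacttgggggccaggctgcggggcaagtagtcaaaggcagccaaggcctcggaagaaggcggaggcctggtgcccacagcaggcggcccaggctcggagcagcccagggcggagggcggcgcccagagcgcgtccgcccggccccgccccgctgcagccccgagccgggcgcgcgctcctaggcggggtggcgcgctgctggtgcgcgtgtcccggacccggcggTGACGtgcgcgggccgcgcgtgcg
The motif was found 28 bases before the Adcy7 start and 24 bases before the Adcy9 start, and the full element TGACGTCA, which contains it, was in none of the 9 windows. Of 32851 mouse promoter windows of the same length, 17.8% held the short motif and 1.55% the full one, so a match in 2 members is a description and not a binding site. CpG dinucleotides numbered 26 in the Adcy1 window, 32 in that of Adcy5 and 34 in that of Adcy9, and 5 in that of Adcy7, against a median of 6 over all windows.

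Total counts per library ranged from 227025 to 24071488 in the hippocampus, 7673 to 35077048 in the hypothalamus, 3056648 to 21988203 in the PFC and 5954700 to 92945090 in the striatum. A library with under 0.5 of its region's median total was called low-depth, and there were 2, 3, 3 and 0 of these. All 8 hypothalamic values of a member at 0 below, and the lower ends of ranges that they set, come from low-depth libraries. In the 48 hypothalamic libraries of normal depth no member had under 49 counts, and the lowest levels were 10.0 nCPM for Adcy7, 17.3 for Adcy2, 27.8 for Adcy9 and 43.7 for Adcy3. Of the 4 hippocampal and 7 PFC values at 0, 2 and 1 were in low-depth libraries. Neuronal markers (5 genes) summed to medians of 9009 to 17232 CPM (counts scaled to a common library total). The highest sum, in the hypothalamus, was mostly Meg3 (median 15255, against 4002 to 5306 elsewhere). Rbfox3, the gene of NeuN, was at 137 there against 1170 to 2186, and Syt1 at 614 against 1984 to 2227. Oligodendrocyte markers summed to medians of 307 to 357, with single libraries up to 6807. Astrocyte, microglial and endothelial markers summed to medians of 41.97 or less, with single libraries up to 618. Among them, Gfap and P2ry12 were at 0 in every forebrain library and were counted in the hypothalamus. The hypothalamic peptide markers summed to a median of 21.3 CPM in the hypothalamus (0 to 254) and 5.85 to 9.57 in the other regions. Agrp ran the other way, with a median of 2.83 in the hypothalamus against 4.78 to 7.69 elsewhere. Hypothalamic medians of the other peptide genes ran from 0 for Oxt to 6.39 for Hcrt, and those elsewhere were 0.70 or less. Libraries were said to stand apart where a marker score (mean log2(CPM + 1) over a list) lay across 4, above it for striatal markers in the hippocampus or for striatal or cortical markers in the hypothalamus and below it for striatal markers in the striatum, and there were 12, 9 and 6 of these. The PFC had no gap in its scores and no such class, and 9 libraries carried sex-linked transcripts against their labelled sex. The hypothalamic table differed from the other 3 in what its counts held, although the study's methods give 1 counting procedure, and the cause was not tested. In it 1189 genes had over 5 CPM and were at 0 in all 3 forebrain tables, and 97.4% of them lay inside other genes, against 0.664% of the other 11002 hypothalamic genes. Levels followed gene span in the forebrain tables (Pearson's r across genes of the log2 values 0.576, 0.498 and 0.680) and less so in the hypothalamus (0.188), while the relation with exon length was alike (0.433, 0.358 and 0.499, and 0.430 in the hypothalamus), although genes are not independent replicates. Differences between the hypothalamus and another region therefore cannot be told apart from this difference between the tables. With sorted nuclei in bulk, fewer cells of a type and less RNA per cell cannot be told apart either.

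Levels are given first as normalized CPM (nCPM, CPM over the 19478 genes counted in every region, scaled by trimmed mean of M values over all libraries). On this scale, which is not divided by length, the highest medians of the 8 were those of Adcy1, Adcy2 and Adcy9 in the hippocampus and that of Adcy5 in the striatum and in the PFC.

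**Figure D1:**
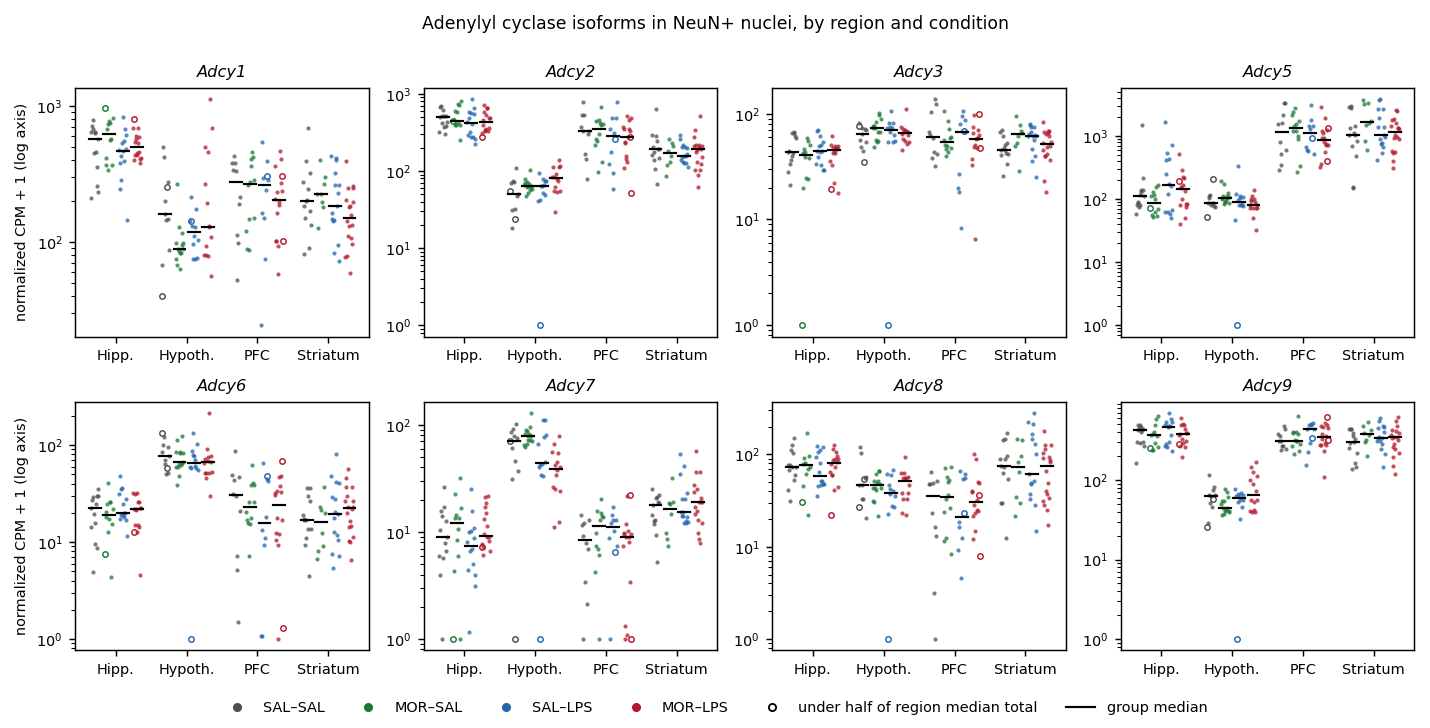
Level of each isoform in every library, by region and condition, as normalized CPM + 1 on a log axis; points are libraries, open circles are libraries of low depth and black bars are group medians. Adcy5 has medians of 1053 in the PFC and 1193 in the striatum, against 115 in the hippocampus and 90.0 in the hypothalamus, and within a region the 4 conditions overlap for every isoform.

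Among the calcium-stimulated isoforms, Adcy1 was highest in the hippocampus, where it ran from 144 to 969 nCPM with a median of 532 (n = 55). Its median was 233 in the PFC (23.2 to 545, n = 48), 184 in the striatum (58.4 to 692, n = 54) and 109 in the hypothalamus (39.2 to 1128, n = 51). The hippocampal level was higher than the striatal by 1.29 on the log2 scale (SE 0.159, 2.45-fold, adjusted p = 1.11e-12, edgeR quasi-likelihood test with Benjamini-Hochberg adjustment over all genes), and 39 of the 42 animals with both libraries showed that order. It was higher than the PFC level by 1.11 (SE 0.161, adjusted p = 9.72e-10) and the hypothalamic by 1.69 (SE 0.160, adjusted p = 4.14e-20), while PFC and striatum did not differ beyond their spread (0.18, SE 0.161, adjusted p = 0.349). Hypothalamic Adcy1 was below the PFC by 0.58 (SE 0.161, adjusted p = 0.00086, edgeR) and below the striatum by 0.39 (SE 0.158, adjusted p = 0.0225), the latter turning to 0.13 higher when libraries were scaled by total count alone.

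Adcy8, the other calmodulin-stimulated isoform, had medians of 73.3 nCPM in the striatum (11.5 to 280), 72.8 in the hippocampus (21.1 to 170), 45.2 in the hypothalamus (0 to 119) and 29.2 in the PFC (0 to 98.8). It was lower in the PFC than in the striatum by 1.33 on the log2 scale (SE 0.187, adjusted p = 2.65e-10, edgeR; 27 of 35 animals) and than in the hippocampus by 1.19 (SE 0.183, adjusted p = 9.93e-09). The top of the order was a tie, with a difference between hippocampus and striatum of -0.14 (SE 0.175, adjusted p = 0.53) and the animals divided 20 to 22. The hypothalamic level was below the hippocampal by 0.70 (SE 0.177, adjusted p = 0.000243, edgeR) and the striatal by 0.84 (SE 0.181, adjusted p = 1.47e-05), and above the PFC by 0.49 (SE 0.184, adjusted p = 0.0148).

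Adcy3, the ciliary isoform, had medians of 66.4 nCPM in the hypothalamus (0 to 111), 57.4 in the PFC (5.6 to 136), 52.4 in the striatum (17.3 to 94.6) and 42.7 in the hippocampus (0 to 68.9). The hippocampal level was below the PFC by 0.52 on the log2 scale (SE 0.113, adjusted p = 3.88e-05, edgeR), the striatum by 0.36 (SE 0.111, adjusted p = 0.00395) and the hypothalamus by 0.66 (SE 0.111, adjusted p = 4.14e-08). The first 2 of these were seen in 25 of 36 and 28 of 42 animals. With SAL–SAL libraries only, the difference between hippocampus and striatum turned direction. Among the other 3 regions the hypothalamus was above the striatum by 0.30 (SE 0.114, adjusted p = 0.0165, edgeR), and neither hypothalamus over PFC (0.14, SE 0.116, adjusted p = 0.284) nor PFC over striatum (0.16, SE 0.115, adjusted p = 0.251) passed the threshold.

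Adcy5, the Gαi-inhibited striatal cyclase, had the widest range between regions. Its median was 1193 nCPM in the striatum (148 to 3824), 1053 in the PFC (269 to 3310), 115 in the hippocampus (39.0 to 1686) and 90.0 in the hypothalamus (0 to 337). Striatum exceeded hippocampus by 3.04 on the log2 scale (SE 0.204, 8.23-fold, adjusted p = 1.75e-31, edgeR), in 40 of 42 animals, and the PFC exceeded it by 2.79 (SE 0.204, 6.91-fold, adjusted p = 6.7e-28), in 34 of 36. The PFC and striatal levels did not differ beyond their spread (-0.25, SE 0.199, adjusted p = 0.288; 22 of 35 animals higher in the striatum). The striatum and the PFC exceeded the hypothalamus by 3.92 (SE 0.220, adjusted p = 5.19e-42, edgeR) and 3.67 (SE 0.219, adjusted p = 9.05e-39), in every one of the 37 and 35 animals. The hippocampus exceeded the hypothalamus by 0.88 (SE 0.194, adjusted p = 2.68e-05, edgeR), and without the libraries that stood apart by markers the difference was -0.0049 (adjusted p = 1).

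Adcy6, its closest relative, was low in the forebrain, with medians of 22.4 nCPM in the PFC (0 to 85.8), 20.4 in the hippocampus (3.40 to 47.2) and 18.1 in the striatum (3.49 to 80.0), and 66.4 in the hypothalamus (0 to 213). The 3 forebrain regions did not differ beyond their spread: -0.37 for hippocampus over PFC (SE 0.200, adjusted p = 0.115, edgeR), 0.02 over striatum (SE 0.196, adjusted p = 0.956) and 0.39 for PFC over striatum (SE 0.204, adjusted p = 0.094). The hypothalamic level was higher by 1.496 to 1.89 on the log2 scale (largest adjusted p = 6.53e-11, edgeR). Adcy6 is also the shortest of the 8 genes, and the forebrain counts follow gene span. The part of length in the Adcy6 difference was not tested.

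Of the Gβγ-stimulated isoforms, Adcy2 had medians of 443 nCPM in the hippocampus (223 to 854), 306 in the PFC (51.2 to 783), 178 in the striatum (61.2 to 639) and 63.0 in the hypothalamus (0 to 138), and each step of that order passed the test. The steps on the log2 scale were 0.55 (SE 0.130, adjusted p = 0.000171, edgeR), 0.78 (SE 0.132, adjusted p = 1.27e-07) and 1.56 (SE 0.132, adjusted p = 7.93e-24), and hippocampus exceeded striatum by 1.33 (SE 0.130, adjusted p = 3.68e-18) in 40 of 42 animals. Hippocampus and PFC exceeded the hypothalamus by 2.89 (SE 0.137, adjusted p = 3.78e-51, edgeR; 38 of 38 animals) and 2.34 (SE 0.138, adjusted p = 1.81e-39). Adcy2 is the longest of the 8 genes.

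Adcy7 had medians of 16.4 nCPM in the striatum (4.28 to 56.1), 8.34 in the PFC (0 to 21.2) and 7.90 in the hippocampus (0 to 31.2), and 63.2 in the hypothalamus (0 to 128). The striatal level was higher than the PFC by 1.07 on the log2 scale (SE 0.222, adjusted p = 1.44e-05, edgeR; 30 of 35 animals) and the hippocampal by 0.86 (SE 0.212, adjusted p = 0.00032; 34 of 42). PFC and hippocampus did not differ beyond their spread (0.21, SE 0.216, adjusted p = 0.451). Against the hypothalamus the 3 regions were lower by 1.74 to 2.81 (largest adjusted p = 1.28e-12, edgeR).

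Adcy9 was even across the forebrain, with medians of 381 nCPM in the hippocampus (161 to 697), 340 in the striatum (118 to 624) and 329 in the PFC (107 to 634), none of the 3 pairs differing beyond its spread (0.06 to 0.17 on the log2 scale, smallest adjusted p = 0.149, edgeR). The hypothalamic median was 54.9 (0 to 169), lower by 2.50 to 2.67 (largest adjusted p = 7.1e-57, edgeR), and it was lower in 38 of 38 animals than in the hippocampus.

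Over the 8 members, 5 passed the test between hippocampus and PFC, where 46.3% of all 19478 genes did, 5 between hippocampus and striatum (45.4% of all genes) and 3 between PFC and striatum (52.7%). Against the hypothalamus, 8 passed for the hippocampus (65.5% of all genes), 7 for the PFC (67.9%) and 8 for the striatum (65.1%). Among the forebrain pairs the members' counts with all libraries lie close to the share of all genes. Between PFC and striatum the count depended on the setting, going from 3 to 7 of the 8 members without the low-depth libraries. Most of the members given above as not differing between PFC and striatum thus passed in that setting. The count also rose with scaling by library size only and without the libraries that stood apart.

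Comparing isoforms with each other was done per kb, by the bases of the gene span not shared with other genes for the forebrain tables and by exon for the hypothalamus, and by the other length as an alternative. In the striatum Adcy5 led by either length, at a median of 8.01 nCPM per kb of span (166 per kb of exon), followed by Adcy9 at 2.57 per kb of span (65.5 per kb of exon). It made up a median of 52.5% of the 8 members' summed level per kb of span (6.79 to 77.4%; 54.6% by exon), and was the highest isoform in 49 of 54 libraries by either length. In the PFC it also led, at 7.07 per kb of span (147 per kb of exon), with 45.7% of the sum (43.2% by exon) and the first place in 40 of 48 libraries by span and 33 by exon. The hippocampal leader depended on the length: Adcy1 at 4.63 per kb of span was first in 48 of 55 libraries, and Adcy2 at 105 per kb of exon was first in 48 of 55. In the hypothalamus the medians per kb of exon ran from Adcy2 at 15.0 through Adcy5 at 12.5 and Adcy3 and Adcy9 at 10.6 each down to Adcy8 at 5.55. There Adcy2 was first in 21 of 51 libraries, Adcy5 in 10 and Adcy1 in 9, while by span Adcy6 would lead at 3.49.

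**Figure D2:**
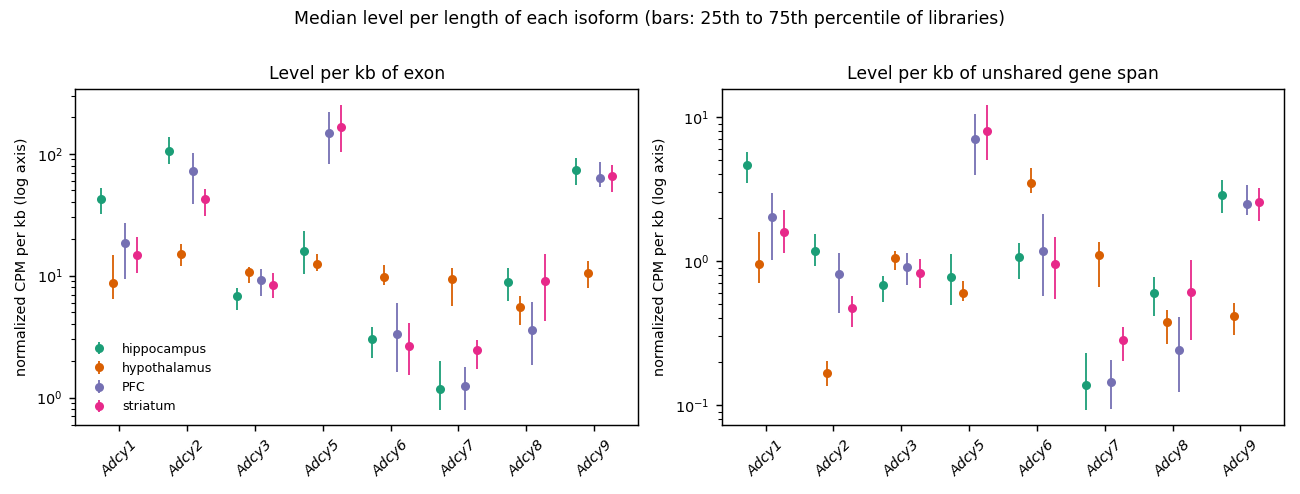
Median nCPM per kb of exon (left) and per kb of unshared gene span (right) of each isoform in the 4 regions, on log axes, with bars from the 25th to the 75th percentile of libraries. Adcy5 is highest in the PFC and striatum on both scales, whereas the hippocampal order of Adcy1 and Adcy2 changes with the length used.

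Isoform levels moved with marker genes of neighbouring tissue between libraries of a region. Marker scores are means of log2(CPM + 1) over the list, 128 relations of member and score were computed over libraries of normal depth and 96 without the libraries standing apart, and permutation p-values (100000 draws, two-sided) were adjusted within each set. The score of striatal projection neuron markers (among them Ppp1r1b, Drd1, Drd2, Adora2a and Rgs9) had a median of 6.75 in the PFC libraries and 6.70 in the striatal, against 2.39 in the hippocampus and 2.702 in the hypothalamus. Across the 45 PFC libraries Adcy5 rose with it (r = 0.657, rho = 0.629, permutation p = 1e-05, the smallest the draws can give; adjusted 5.3e-05), and r was 0.618 without the 2 outermost libraries. Adcy2 ran the other way (r = -0.784, rho = -0.846, same p), and Adcy1 followed the cortical excitatory score (among its genes Slc17a7, Neurod6 and Rorb) with r = 0.850 and rho = 0.814 (permutation p = 1e-05; r = 0.854 without the 2 outermost). How far the PFC levels of Adcy5 come from striatal tissue in the punch was not tested.

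In the striatum, over the 48 libraries that did not stand apart, Adcy8 followed the thalamic score (Prkcd, Tcf7l2, Rora, Lef1, Slc17a6) with r = 0.871 and rho = 0.884 (permutation p = 1e-05, adjusted 0.00012; r = 0.863 without the 2 outermost). Adcy1 did so with r = 0.776 and rho = 0.815 (r = 0.809 without the 2 outermost, same p). Adcy6 fell as the striatal projection neuron score rose (r = -0.818, rho = -0.864, same p). Adcy5 itself was only loosely tied to that score in these libraries (r = 0.333, rho = 0.267, permutation p = 0.02 and 0.066, adjusted 0.057 and 0.14). In the hippocampus the 3 highest Adcy5 levels (1686, 1472 and 705 nCPM) came from libraries with striatal scores of 7.42, 6.77 and 7.19, and among the 42 libraries that did not stand apart no relation passed (r = 0.221, rho = 0.133, permutation p = 0.16 and 0.4).

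**Figure D3:**
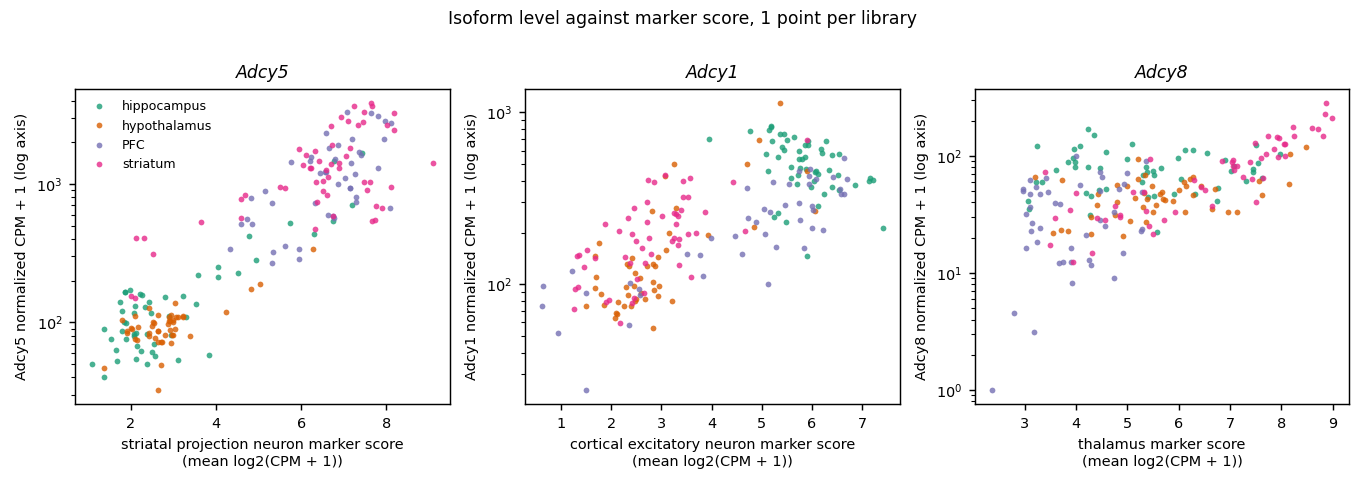
Adcy5 against the striatal projection neuron score, Adcy1 against the cortical excitatory score and Adcy8 against the thalamic score, 1 point per library of normal depth, coloured by region, with nCPM + 1 on a log axis. The PFC points lie among the striatal ones in the first panel, and 6 hypothalamic libraries lie to the right of a cortical score of 4 in the middle panel.

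Perinatal morphine and adult LPS were compared within each region with sex in the model, and a member was called at an adjusted p under 0.05. Of the 160 pairs of a member and a condition contrast, 4 were called and 17 had an unadjusted p under 0.05, and all 4 calls were in the hypothalamus. They were the LPS responses of Adcy1, Adcy7 and Adcy9 in morphine-exposed mice and the interaction of Adcy1. Of the 17, 13 fell among the 40 hypothalamic pairs and 4 among the 120 forebrain pairs, where 13.9 to 20.5% of all hypothalamic genes and 10.1 to 17.8% of all forebrain genes had such a p in these contrasts.

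In the hypothalamus, Adcy1 ran from 39.2 to 503 nCPM in SAL–SAL (median 158), 62.5 to 268 in MOR–SAL (87.2), 74.1 to 213 in SAL–LPS (118) and 54.9 to 1128 in MOR–LPS (128). The groups overlapped, and the MOR–LPS group alone held libraries above 503. MOR–LPS was higher than MOR–SAL by 1.41 on the log2 scale (SE 0.324, 2.66-fold, adjusted p = 0.00655, edgeR), in a contrast where 6.27% of all 28859 genes were called. SAL–LPS against SAL–SAL gave -0.81 (SE 0.356, adjusted p = 0.27; 0.246% of all genes called). The interaction, the LPS response after morphine minus that after saline, was 2.21 (SE 0.480, adjusted p = 0.00651, edgeR; 3.8% of all genes called). It was not called with the number group as a replicate block (1.58, adjusted p = 0.121) or without number group 10 (1.499, adjusted p = 0.0827). Baseline MOR–SAL was at -1.07 against SAL–SAL (SE 0.337, adjusted p = 0.0736; 1.44% of all genes called). The thalamic marker list moved with that contrast, at a median sum of 863 CPM in SAL–SAL (221 to 2457) against 460 in MOR–SAL (207 to 1214) and 287 and 357 in SAL–LPS and MOR–LPS. Its highest hypothalamic medians were those of Slc17a6 (151 CPM, against 1.84 to 27.2 in the other regions) and Rora (98.5, against 1133 to 3105). The list is thus not specific to thalamic tissue here, and what its sum reflects was not tested. With striatal, cortical and thalamic marker scores as covariates the baseline difference was -0.56 (adjusted p = 0.411, edgeR). The comparison of the LPS groups put MOR–LPS at 1.14 against SAL–LPS (SE 0.347, adjusted p = 0.0742; 1.03% called).

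Adcy7, stimulated by Gβγ, ran from 0 to 101 nCPM in SAL–SAL (median 70.0), 61.0 to 128 in MOR–SAL (77.3), 0 to 111 in SAL–LPS (42.8) and 10.0 to 78.5 in MOR–LPS (37.99). The lowest MOR–SAL library was above the MOR–LPS median. MOR–LPS was lower than MOR–SAL by 1.01 on the log2 scale (SE 0.239, 2.01-fold, adjusted p = 0.00829, edgeR). Its interaction was -1.05 (SE 0.359, adjusted p = 0.0854) and MOR–LPS against SAL–LPS gave -0.64 (SE 0.250, adjusted p = 0.18).

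Adcy9 ran from 24.5 to 116 nCPM in SAL–SAL (median 62.0), 35.4 to 76.7 in MOR–SAL (43.5), 0 to 76.1 in SAL–LPS (58.5) and 38.6 to 169 in MOR–LPS (63.5). MOR–LPS was higher than MOR–SAL by 0.72 (SE 0.201, 1.65-fold, adjusted p = 0.0226, edgeR), and by 0.53 with the number group as a replicate block (adjusted p = 0.21). It was also not called without number group 6, 8, 14 or 16. The interaction was 0.80 (SE 0.303, adjusted p = 0.133) and MOR–LPS against SAL–LPS gave 0.48 (SE 0.215, adjusted p = 0.277).

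Adcy5 in MOR–LPS against MOR–SAL (-0.43, SE 0.192, adjusted p = 0.171, edgeR) and Adcy2 in MOR–SAL against SAL–SAL (0.41, SE 0.191, adjusted p = 0.249) were the other hypothalamic pairs with an unadjusted p under 0.05. The median log2 change over the 8 members was 0.02 in MOR–LPS against MOR–SAL and over all genes 0.0027. The isoforms not yet given had group medians, from the lowest group to the highest, of 63.1 to 72.4 nCPM for Adcy3, 64.5 to 76.8 for Adcy6 and 37.5 to 50.03 for Adcy8. Those of Adcy5 ran from 79.2 in MOR–LPS to 102 in MOR–SAL and those of Adcy2 from 48.6 in SAL–SAL to 81.0 in MOR–LPS. With DESeq2, 3 members were called in that contrast and 1 in the interaction, among 1269 and 345 of all 28859 genes (edgeR: 1809 and 1098).

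These hypothalamic calls moved with 6 libraries. Their score of cortical excitatory markers was above 4, with the vesicular glutamate transporter gene Slc17a7 at 64.8 to 217 nCPM, against medians of 2.59 to 15.0 in the other libraries of the 4 groups, single ones of which reached 120, so this gene alone did not separate them. Of the 6, 5 belonged to MOR–LPS and 1 to SAL–LPS, and their hippocampal marker scores ran from 3.201 to 7.71 (hypothalamic median 3.84) while their hypothalamic peptide scores (Hcrt, Pmch, Agrp, Pomc, Avp, Oxt) were 0 to 0.883. MOR–LPS libraries 14-0, 6-0 and 8-3 had hippocampal scores of 6.57, 7.71 and 6.89 and cortical scores of 4.70, 5.36 and 4.95. The cortical list does not separate cortex from hippocampus, where Slc17a7 had a median of 122 CPM (107 in the PFC) and Neurod6 30.1 (4.84). The 6 are called the libraries with cortical markers after that score alone. The 5 MOR–LPS libraries held Adcy1 at 267 to 1128 nCPM (median 500), against 54.9 to 193 (median 91.7) in the other 9 of the group, and the ranges did not overlap. They held Adcy9 at 97.96 to 169, against 38.6 to 87.4, and Adcy7 at 10.0 to 33.0, against 24.2 to 78.5. Astrocyte markers also moved with the group, at a median sum of 175 CPM in MOR–LPS (14.6 to 618) against medians of 18.4 to 28.8 in the other groups, and their part in these values was not tested.

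Without the 6 libraries no member was called in MOR–LPS against MOR–SAL: Adcy1 was at 0.05 (adjusted p = 0.985, edgeR), Adcy7 at -0.60 (adjusted p = 0.132) and Adcy9 at 0.16 (adjusted p = 0.788). The interaction of Adcy1 was 0.92 (adjusted p = 0.19). All genes called in the contrast went from 1809 to 395, or 1.39%. With the striatal, cortical and thalamic marker scores as covariates and all libraries kept, the 3 values were 0.35 (adjusted p = 0.626), -0.71 (adjusted p = 0.0894) and 0.18 (adjusted p = 0.755), and the interaction was 0.52 (adjusted p = 0.715). No SAL–SAL or MOR–SAL library had a cortical score above 4, although MOR–SAL striatal scores reached 5.02. The baseline difference of Adcy1 was -1.005 with an adjusted p of 0.0209 without the 6 libraries, -1.003 with 0.0554 without all 9 that stood apart, and -0.45 with an adjusted p of 0.613 without number group 10. Among the 39 hypothalamic libraries that did not stand apart, Adcy1 still rose with the thalamic score (r = 0.660, rho = 0.57, permutation p = 3e-05 and 0.00023, adjusted 0.00026 and 0.0017; r = 0.517 without the 2 outermost) and with the cortical score (r = 0.491, rho = 0.478, permutation p = 0.0014 and 0.0025, adjusted 0.0064 and 0.012; r = 0.453).

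**Figure D4:**
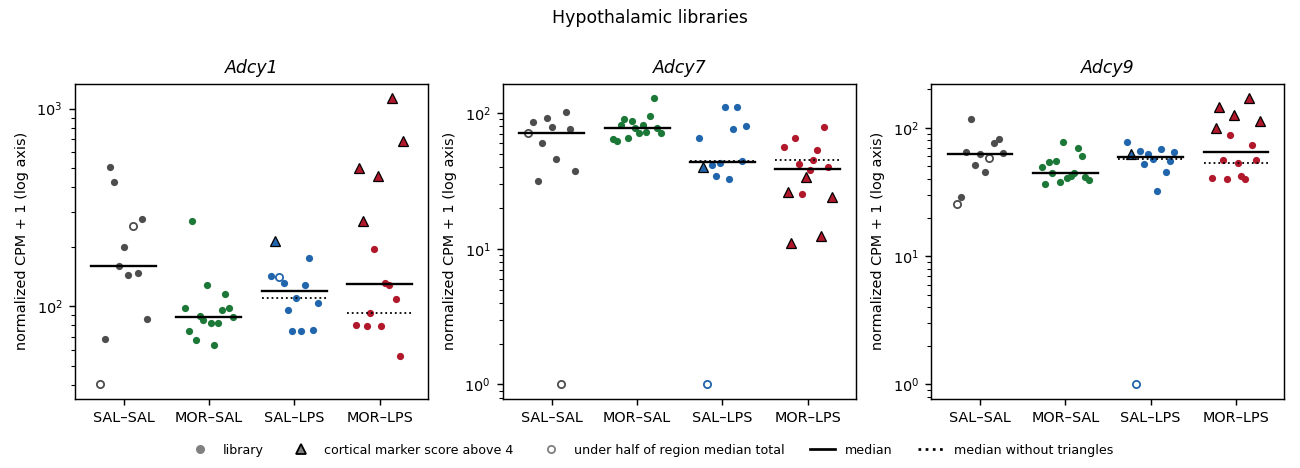
Adcy1, Adcy7 and Adcy9 in every hypothalamic library by condition, as nCPM + 1 on a log axis; triangles are libraries with a cortical marker score above 4, open circles low-depth libraries, solid bars group medians and dotted bars medians without the triangles. The 5 triangles of MOR–LPS are the group's highest libraries for Adcy1 and Adcy9 and lie at 33.0 or less for Adcy7.

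**Figure D5:**
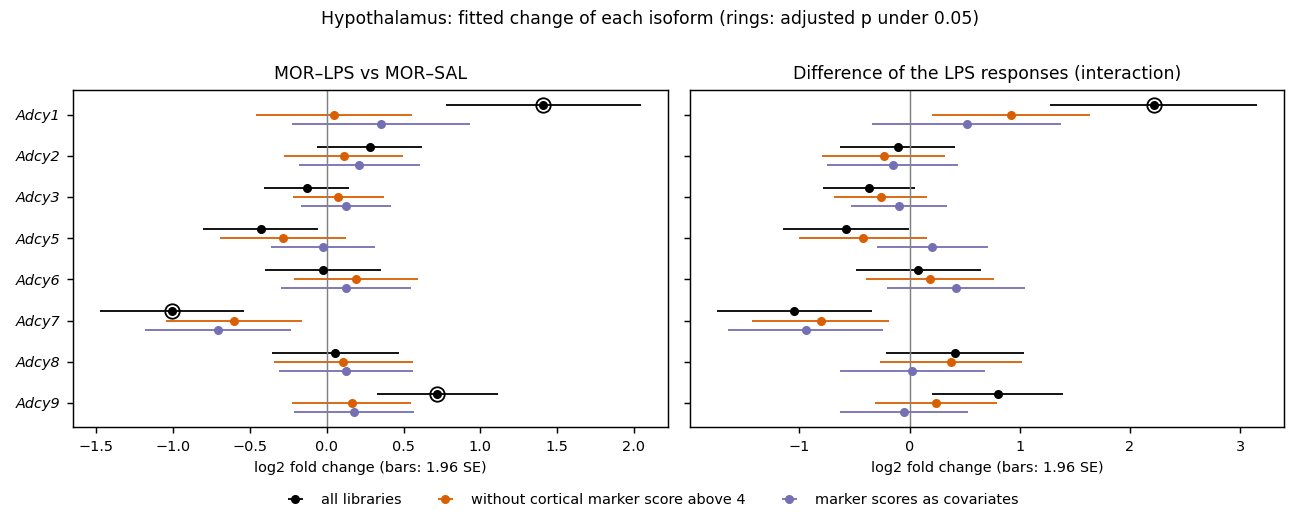
Fitted log2 change of each isoform in the hypothalamus for MOR–LPS against MOR–SAL and for the interaction, with 95% intervals from the SE and rings at an adjusted p under 0.05, from all libraries, without the 6 libraries with a cortical score above 4, and with marker scores as covariates. The rings on Adcy1, Adcy7 and Adcy9 are present with all libraries and absent in both alternatives.

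The hypothalamic Adcy1 values were also set against the other regions in a model of all 208 libraries. The response of MOR–LPS against MOR–SAL was higher in the hypothalamus than in the hippocampus by 1.63 (the difference, hippocampus minus hypothalamus, was -1.63, SE 0.423, adjusted p = 0.0136, edgeR; 2.91% of all genes called), than in the PFC by 1.67 (adjusted p = 0.0105; 2.81%) and than in the striatum by 2.01 (adjusted p = 0.00434; 1.21%). The interaction differed by -2.33 for the hippocampus minus the hypothalamus (adjusted p = 0.0209, edgeR; 1.59% of all genes called), by 2.48 for the hypothalamus minus the PFC (adjusted p = 0.0148; 2.4%) and by 2.74 minus the striatum (adjusted p = 0.00779; 1.39%). None of these 6 was called without the libraries standing apart (adjusted p = 0.219 to 0.904, edgeR), and none with the animal as a replicate block (limma-voom, adjusted p = 0.429 to 0.682), where they were -0.94, 1.203, 1.60, -1.18, 1.44 and 1.98 in the same order. Limma on log2(CPM + 1) or log2(CPM + 0.1) with no block called none of them either (adjusted p = 0.191 to 0.464), so the part of the block cannot be told apart from that of the tool. A seventh difference, in a contrast where no region had a called member and which the rule for comparing regions left out, also passed: MOR–LPS against SAL–LPS was higher in the hypothalamus than in the striatum by 1.64 (SE 0.421, adjusted p = 0.0454, edgeR; 0.313% of all genes called), and by 0.12 (adjusted p = 1) without the libraries standing apart. No other member passed in these contrasts.

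In the hippocampus no member was called, where 0% of all genes were called for MOR–SAL against SAL–SAL, 2.73% for MOR–LPS against SAL–LPS, 2.55% for SAL–LPS against SAL–SAL, 0.467% for MOR–LPS against MOR–SAL and 2.35% for the interaction. Adcy5 alone had unadjusted p under 0.05, in the first and the second contrast, and DESeq2 called none either. Over all genes MOR–SAL against SAL–SAL had 0 called by edgeR, 2272 at an unadjusted p under 0.05 and 8 called by DESeq2. Adcy5 ran from 56.8 to 1472 nCPM in SAL–SAL (median 110), 51.2 to 164 in MOR–SAL (85.2), 49.3 to 1686 in SAL–LPS (165) and 39.0 to 524 in MOR–LPS (142). MOR–SAL was at -1.15 against SAL–SAL (SE 0.473, adjusted p = 0.299, edgeR) and MOR–LPS at -1.07 against SAL–LPS (SE 0.423, adjusted p = 0.141), and without the libraries that carried striatal markers these were -0.16 (adjusted p = 0.955) and 0.16 (adjusted p = 0.813). The group medians of the leading hippocampal isoforms stayed within 470 to 627 nCPM for Adcy1, 415 to 495 for Adcy2 and 363 to 469 for Adcy9, and those of Adcy8 within 56.8 to 79.9. Adcy3 stayed within 39.7 to 44.3, Adcy6 within 18.2 to 21.6 and Adcy7 within 6.45 to 11.0.

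In the PFC 0%, 0.0046%, 0%, 0.0184% and 1.78% of all genes were called in the same order of contrasts, and no member was called or had an unadjusted p under 0.05 (DESeq2 called 0 as well). Over all genes the first and the third of these had 2185 and 2752 at an unadjusted p under 0.05 in edgeR, and DESeq2 called 16 and 71. Adcy5, the leading PFC isoform, had medians of 1158 nCPM in SAL–SAL (286 to 3310), 1310 in MOR–SAL (269 to 2756), 1116 in SAL–LPS (509 to 3082) and 873 in MOR–LPS (322 to 2828). The smallest adjusted p of a PFC member in a condition contrast was that of Adcy5 in MOR–LPS against MOR–SAL (-0.59, SE 0.343, adjusted p = 0.511, edgeR). The other PFC group medians ran from 201 to 273 nCPM for Adcy1, 274 to 344 for Adcy2, 312 to 439 for Adcy9 and 52.6 to 66.8 for Adcy3. They ran from 19.9 to 34.2 for Adcy8, 14.7 to 29.7 for Adcy6 and 7.48 to 10.4 for Adcy7.

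In the striatum the shares of all genes called were 0%, 0%, 0.0128%, 1.39% and 0.00854%. The first pair had 2683 and 2628 genes at an unadjusted p under 0.05 in edgeR, and DESeq2 called 6 and 91. Adcy5 had medians of 1040 nCPM in SAL–SAL (148 to 3022), 1669 in MOR–SAL (587 to 3663), 1043 in SAL–LPS (409 to 3824) and 1146 in MOR–LPS (311 to 2613), and MOR–LPS against MOR–SAL gave -0.77 (SE 0.386, adjusted p = 0.286, edgeR). Adcy3 ran from 25 to 69.8 in SAL–SAL (median 44.7), 27.7 to 94.6 in MOR–SAL (62.6), 24.3 to 79.0 in SAL–LPS (61.1) and 17.3 to 83.3 in MOR–LPS (50.2). Its MOR–SAL against SAL–SAL change of 0.38 (SE 0.186, adjusted p = 0.43, edgeR) and interaction of -0.56 (SE 0.237, adjusted p = 0.256) were the only striatal values with an unadjusted p under 0.05. The other striatal group medians ran from 150 to 223 nCPM for Adcy1, 156 to 192 for Adcy2, 303 to 379 for Adcy9 and 60.9 to 74.8 for Adcy8. They ran from 15.2 to 21.3 for Adcy6 and 14.2 to 18.0 for Adcy7. DESeq2 called 0 members in each striatal contrast.

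Between the sexes 1 member was called. Hypothalamic Adcy2 ran from 17.3 to 89.1 nCPM in females (median 58.3, n = 26) and 0 to 138 in males (70.4, n = 25), a difference of -0.53 for females minus males (SE 0.134, adjusted p = 0.0163, edgeR; 3.44% of all genes called). Without the 6 libraries with cortical markers it was -0.45 (adjusted p = 0.0776), while Adcy3 at -0.37 (adjusted p = 0.0486) and Adcy7 at -0.58 (adjusted p = 0.0368) were then called. Hypothalamic Adcy3 with all libraries was at -0.25 (SE 0.106, adjusted p = 0.194, edgeR). In the hippocampus Adcy7 was at 0.80 (SE 0.305, adjusted p = 0.145, edgeR) and Adcy9 at -0.22 (SE 0.110, adjusted p = 0.308), and in the PFC Adcy9 was at -0.37 (SE 0.132, adjusted p = 0.147), with 2.51% and 0.709% of all genes called. No striatal member had an unadjusted p under 0.05, where 0.841% of all genes were called. Since 17 of 18 number groups held 1 sex, the sexes were compared almost wholly between number groups, and sex and number group cannot be told apart within them. With the correlation in number groups (limma-voom) no hypothalamic member was called between the sexes. Adcy2 was not called without number group 6 either (adjusted p = 0.053, edgeR). Sex-linked transcripts went against the labelled sex in 3 hypothalamic, 4 hippocampal and 2 PFC libraries, which were kept in these tests.

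Of the 56 other genes of the cyclic AMP pathway, 54 to 56 were tested in each region. The hypothalamic calls are given first. MOR–SAL against SAL–SAL had 2 of 56, both higher, where 1.44% of all genes were called: Prkar1b, a regulatory subunit of protein kinase A (0.67, SE 0.173, adjusted p = 0.0298, edgeR), and Pde8b, a cyclic AMP phosphodiesterase (0.63, SE 0.166, adjusted p = 0.0348). Pde8b was also the 1 gene called in SAL–LPS against SAL–SAL (0.73, SE 0.176, adjusted p = 0.0447, edgeR; 0.246% of all genes), and both comparisons share the SAL–SAL libraries. In MOR–LPS against MOR–SAL, Oprm1, the µ-opioid receptor on which morphine acts, was lower by 0.72 (adjusted p = 0.0181, edgeR) and Adora1, the Gαi-coupled adenosine A1 receptor, was higher by 0.98 (adjusted p = 0.0264), 2 of 56 genes where 6.27% of all genes were called. In the interaction 2 of 56 fell, where 3.8% of all genes were called, the κ-opioid receptor Oprk1 (-1.68, adjusted p = 0.0168, edgeR) and the adenosine receptor gene Adora2a (-5.85, SE 1.61, adjusted p = 0.0248), and MOR–LPS against SAL–LPS had 0 of 56. Without the 6 libraries with cortical markers 2 genes were called in MOR–SAL against SAL–SAL, 3 in the interaction and 0 in the other contrasts of conditions. The 3 included Oprk1 (-1.49, adjusted p = 0.0415, edgeR) and Adora2a (-5.99, adjusted p = 0.0497). Without all 9 libraries that stood apart 0 were called in each of the 5 contrasts. Prkar1b was then at 0.65 (adjusted p = 0.0641, edgeR) and Pde8b at 0.595 (adjusted p = 0.0786) in MOR–SAL against SAL–SAL and 0.594 (adjusted p = 0.117) in SAL–LPS against SAL–SAL. Oprm1 was at -0.46 (adjusted p = 0.261), Adora1 at 0.79 (adjusted p = 0.25) and Oprk1 at -1.33 (adjusted p = 0.0895). With marker scores as covariates Prkar1b was still called (0.69, adjusted p = 0.0333, edgeR), and Pde8b was at 0.46 (adjusted p = 0.13) and 0.52 (adjusted p = 0.155) in the same contrasts. Oprm1 was then at -0.31 (adjusted p = 0.451, edgeR), Adora1 at 0.60 (adjusted p = 0.271) and Oprk1 at -0.74 (adjusted p = 0.447). Adora2a is also one of the striatal markers, with a hypothalamic median of 0 and a highest value of 20.7 CPM, and striatal scores reached 6.29 in SAL–LPS and 5.02 in MOR–SAL. The interaction of Adora2a was -1.80 (adjusted p = 1, edgeR) without the libraries that stood apart and 0.042 (adjusted p = 1) with the covariates.

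Between the sexes 7 of 56 hypothalamic pathway genes were called (3.44% of all genes; 4 without the libraries that stood apart), 4 higher and 3 lower in females, among them Adora2a (3.01, SE 0.789, adjusted p = 0.0216, edgeR; 1.21, adjusted p = 0.669, without those libraries), the cyclic AMP-gated exchange factor Rapgef3 (0.68, adjusted p = 0.0241) and the phosphodiesterases Pde4b (0.50, adjusted p = 0.0246) and Pde8a (0.71, adjusted p = 0.0268). Forebrain calls numbered 3: Ric8b, a chaperone of Gα subunits, in the hippocampus (MOR–LPS against SAL–LPS, -0.65, adjusted p = 0.0482, edgeR), Pde4a in the striatum (MOR–LPS against MOR–SAL, -0.69, adjusted p = 0.0488) and striatal Pde4b between the sexes (0.64, adjusted p = 0.0498). Each was 1 of 55 genes, where 2.73%, 1.39% and 0.841% of all genes were called. Without the libraries that stood apart Ric8b turned to 0.081 (adjusted p = 0.825, edgeR), Pde4a was at -0.63 (adjusted p = 0.0951) and Pde4b at 0.62 (adjusted p = 0.0726). With marker scores as covariates Ric8b was at -0.22 (adjusted p = 0.39, edgeR), Pde4a at -0.66 (adjusted p = 0.039) and Pde4b at 0.68 (adjusted p = 0.0393). The PFC had 0 of 54 in all 6 contrasts, with 2, 2, 2, 3, 0 and 4 at an unadjusted p under 0.05, where 10.1 to 13.2% of all genes had one.

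The genes whose library-to-library pattern was most like that of each member are given as a description, by Pearson's r of log2(nCPM + 1) over libraries of normal depth in the region where the member's median was highest. For Adcy5 over 54 striatal libraries and 9129 genes they were Gng7 (0.961), a G protein γ subunit of striatal neurons, Drd2 (0.952), the D2 dopamine receptor, and Rarb (0.952), a retinoic acid receptor. For Adcy8 in the same libraries they were the potassium channel gene Kcnc2 (0.954), Ccdc136 (0.942) and Chst8 (0.941). Over 53 hippocampal libraries and 9329 genes, Adcy9 was most like the chromatin gene Arid1b (0.913), Rnf165 (0.902) and Rere (0.896), Adcy1 like Vps13c (0.865), Btbd9 (0.857) and Ahcyl2 (0.849), and Adcy2 like Mical2 (0.845), Fam135b (0.844) and Hivep2 (0.836). Over 48 hypothalamic libraries and 10744 genes, Adcy7 was most like the meiotic cohesin gene Rec8 (0.819), Ubap1l (0.815) and the acetylcholinesterase gene Ache (0.805), Adcy6 like Arhgap1 (0.723), Iqce (0.667) and the calcium channel gene Cacna1b (0.655), and Adcy3 like Vac14 (0.659), Slc25a1 (0.655) and Map2k2 (0.642). These libraries include those that stood apart. Over the 48 other striatal libraries the r of Adcy5 was 0.970 with Gng7, 0.964 with Drd2 and 0.948 with Rarb, while that with the striatal marker score, whose list holds Drd2, was 0.333. Over the 39 other hypothalamic libraries the r of Adcy7 was 0.593 with Rec8, 0.632 with Ubap1l and 0.646 with Ache. All libraries of a region share marker content and depth, so these values are not tests.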

How the data were processed

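Nuclear polyA RNA of NeuN-sorted nuclei was measured by a modified Smart-seq3 protocol. Per the labels and the study's methods, the authors trimmed reads (Trim Galore 0.6.7), aligned them to mm10 (STAR 2.7.10a, with HTSeq 0.12.4 beside it) and deposited raw counts per gene and CPM for each region; a strand setting is not given in the sources used here. The deposited CPM values were counts divided by their sum without 37 mitochondrial genes, and the deposited counts were used for the tests. The authors' own comparisons used DESeq2 1.40.2.

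Groups came from the labels. Within a region, genes with a total count above 10 were fitted with condition and sex (edgeR 4.0.16, R 4.3.3, quasi-likelihood F test, TMM scaling, Benjamini-Hochberg over all genes). Regions were compared in 1 model of all 208 libraries with region by condition and sex over 19478 genes. All 8 members passed the filter in every region. Alternatives were DESeq2 1.42.0, limma 3.58.1, other scalings and filters, subsets, number groups left out, number group or animal as a block, and, chosen after the data were seen, marker-based ones and the gene span as length. Gene models were GENCODE vM21. Named members were all 8 in every region and condition, with test values for contrasts with an unadjusted p under 0.05 and for all region pairs; of the pathway list, the called genes, at most 4 per contrast; and 3 genes of like pattern per member. The members, gene lists and tests were chosen with earlier results of these data known. The labels' replicate numbers were read as number group and animal, since each full number had 1 condition and 1 sex in all its regions; number groups are nested in exposure. The correlation of an animal's deviations between regions had medians of 0.000835 to 0.0835, and the within-region correlation in number groups was -0.0489 to 0.0288. Each library is 1 animal, and low-depth libraries were kept in the main tests. Some genes of the marker lists are part of the scores but are not reported here. Scripts were tested on simulated data.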

Additional observations from a re-analysis of the deposited data

Results flagged for a closer look

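Adcy5 in the PFC stood out in 1 SAL–LPS library, replicate 3-3, at 3081.61 nCPM, where the next library was at 1815 and the group median at 1116. Its gap to the next library was 0.492 of the group's range, above Dixon's 95% critical value for 10 libraries. Of 24 member groups small enough for that test 1 was marked, and chance marks about 1 in 20.

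Adcy1 differed in its LPS response between exposures in the hypothalamus, by an interaction of 2.2141 on the log2 scale (adjusted p = 0.00651, edgeR). Its MOR–LPS against MOR–SAL response differed between regions, by -1.6348 for hippocampus minus hypothalamus, 1.6744 for hypothalamus minus PFC and 2.0079 for hypothalamus minus striatum. The interaction differed by -2.3346, 2.4835 and 2.7446 for the same pairs. MOR–LPS against SAL–LPS, in which no member was called within a region, differed by 1.6428 for hypothalamus minus striatum. These 8 differences of Adcy1 passed their tests with all libraries and none passed without the libraries that stood apart by markers, where the differences between regions were -0.49, 0.24, 0.54, -1.58, 1.19, 1.42 and 0.12 and the interaction 0.94 (adjusted p = 0.25). The removal took out 12 hippocampal, 9 hypothalamic and 6 striatal libraries together, and their separate parts in the differences between regions were not tested.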

How the results depend on the processing

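Counts of called members kept within 1.5 times in 478 of 518 comparisons of a setting with the main one, log2 fold changes kept their direction and side of the threshold in 543 of 607, and log2 differences between regions in 314 of 384. Levels per kb stayed within 1 SD in 36 of 64 and percent shares in 76 of 96. The causes of the changes below were not tested. Removing libraries shows that a call depended on them and not why. The marker-based removals were chosen after the data were seen, and most libraries with cortical markers were in MOR–LPS. In the hypothalamus MOR–SAL vs SAL–SAL went from 0 members called to 2 with females alone, 1 with only the groups compared and 1 without the libraries with cortical markers, with a range of 0 to 1 over number groups left out. MOR–LPS vs SAL–LPS went from 0 to 1 with library size only and 1 with no sex term. MOR–LPS vs MOR–SAL went from 3 to 0 with females alone, without libraries apart by markers or by cortical markers, with marker scores as covariates and with limma on log2(CPM + 1) or log2(CPM + 0.1), and to 1 with the correlation in number groups (limma-voom); number groups left out gave 2 to 3, Adcy9 being lost without number group 6, 8, 14 or 16 (adjusted p = 0.0535 to 0.0795). The interaction went from 1 to 0 with males alone, both marker removals, covariates, number group as replicate block, correlation in number groups and both limma fits, and ranged 0 to 2 over number groups left out (0 without number group 10, Adcy1 at 1.499; 2 without number group 1). Female vs male went from 1 to 0 with only the groups compared, without libraries apart by markers, correlation in number groups and both limma fits, to 2 without cortical libraries or with covariates, and ranged 0 to 1 over number groups (0 without number group 6). The striatal MOR–LPS vs MOR–SAL went from 0 to 1 with covariates (Adcy1, -0.70, adjusted p = 0.019).

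With number group as a replicate block, Adcy1 in MOR–LPS vs MOR–SAL was 1.09 (adjusted p = 0.0381), Adcy7 -1.07 (0.00348), Adcy9 0.53 (0.21) and the Adcy1 interaction 1.58 (0.121); the animal as replicate block across regions, in limma-voom, left none of the Adcy1 region differences called, and limma with no block left none either. With SAL–SAL libraries only, members called went from 8 to 5 (hippocampus vs hypothalamus), 5 to 3 (hippocampus vs PFC), 5 to 3 (hippocampus vs striatum) and 8 to 5 (hypothalamus vs striatum). PFC vs striatum went from 3 to 6 with library size only, 6 without libraries apart by markers, 7 without low-depth libraries and 5 with a total above 10 over all libraries.

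Directions turned for uncalled values in the hypothalamus: MOR–LPS vs SAL–LPS Adcy1 to -0.0674, -0.0875 and -0.0422 and Adcy9 to -0.0562, -0.0778 and -0.11 (without libraries apart, without cortical libraries, covariates), Adcy7 to 0.20 (limma, 0.1), the Adcy9 interaction to -0.051 (covariates), Adcy2 MOR–SAL vs SAL–SAL to -0.0625 (males alone) and Adcy3 female vs male to 0.0936 and 0.2439 (limma, 1 and 0.1). Hippocampal Adcy5 MOR–LPS vs SAL–LPS turned to 0.16 without libraries apart. Between regions, hippocampus vs hypothalamus Adcy5 turned to -0.0049 (libraries apart left out), hippocampus vs PFC Adcy6 to 0.0263, 0.40 and 0.17 (animal block, limma 0.1 and 1), hippocampus vs striatum Adcy3 to 0.0459 (SAL–SAL only) and Adcy8 to 0.0232, 0.0095, 0.0567, 0.27, 0.26 and 0.17 (SAL–SAL only, animal block, library size, limma 0.1 and 1, libraries apart), hypothalamus vs PFC Adcy3 to -0.27 (SAL–SAL only), hypothalamus vs striatum Adcy1 to 0.13 (library size), PFC vs striatum Adcy3 to -0.0159 (animal block), Adcy5 to 0.36 (SAL–SAL only) and Adcy6 to -0.0705 (limma, 0.1). Scaling by library size alone moved the median of all genes by up to 0.44 between regions and 0.26 within a region.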
